A study of Mus musculus with 78 samples.

Results

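The cadherin and protocadherin genes were read across the cell types of the adult mouse retina. The members were all genes with a single-symbol probe set whose symbol starts with Cdh and a digit or with Pcdh, except the endothelial gene Cdh5, which gave 54 of the 19301 genes of the table. Each gene was read from 1 probe set, chosen by mean level for Pcdh15, the 1 member with more than 1. The members comprised 5 classical type I cadherins, 11 type II cadherins, 5 atypical cadherins, 4 delta-1, 5 delta-2 and 3 other single protocadherins, and 21 genes of the protocadherin beta cluster. Of these, 46 had a mean above the median of all values, 9.01, in at least 1 sample set and were tested.

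Cadherins are calcium-dependent adhesion molecules whose outer domains bind like to like across the gap between cells and whose tails anchor to actin through catenins. In the retina the type II cadherins are known for matching bipolar, amacrine and ganglion cell processes to layers of the inner plexiform layer. Protocadherins bind more weakly and signal through other tails, the delta-2 group through the WAVE actin regulator. The beta cluster genes are read from separate promoters in combinations that differ from cell to cell, and give neurons a surface identity.

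The data were Affymetrix Mouse Gene 1.0 ST intensities of 78 arrays, in 26 sets of 3 biological replicates from 22 lines of adult mice. Each array held RNA of 200 fluorescent cells sorted after a papain dissociation of 15 min. Photoreceptors came from b2-Cre × Rosa26-LSL-RFP (rods, 3 sets), Tg(Chrnb4-EGFP)1Gsat and d4-Cre × Rosa26-LSL-RFP (cones), and horizontal cells from the line Gja10-Cre × Rosa26-LSL-RFP. Bipolar cells came from mGlur6-Cre × Rosa26-LSL-RFP (ON-bipolar), Kcng4-CreERT2 × Rosa26-LSL-RFP, B6:FVB-Tg(Pcp2-EGFP)2Yuza (rod bipolar) and Tg(Lhx4-EGFP)199Gsat. Amacrine cells came from Tg(Arc-EGFP)194Gsat/Mmcd (3 sets), Tg(Igfbp2-EGFP)17Gsat, Tg(Rgs5-EGFP)24Gsat, the Cre driver Tg(Crh-Cre)282Gsat/Mmnc and the starburst driver 129S6-Chat_tm1(cre)Lowl/J, each crossed to Rosa26-LSL-RFP, Tg(Chrna3-EGFP)BZ135Gsat/Mmnc, Tg(6430514L14Rik-EGFP)95Gsat (called Fam81a here, as in its cell type label), Tg(Fbxo32-EGFP)138Gsat/Mmcd and Tg(Ier5-EGFP)267Gsat. Ganglion cells came from 129SVCB6(PV-CRE#32)SA-09 crossed to ThyStopY, Tg(Drd4-EGFP)W18Gsat/Mmnc, C57BL/6-Tg(Grik4-Cre)G32-4Stuj and the melanopsin driver mOpn4-Cre1D4, the last 2 crossed to Rosa26-LSL-RFP, and microglia from Tg(Csf2rb2-EGFP)334Gsat. Cells were thus chosen by where a driver was active, and each line rests on 1 driver, alone or crossed to a reporter. Every array carries the same mixed background of FVB/N-Swiss Webster and C57BL/6J. Mice from one supplier carried a recessive mutation that causes photoreceptor degeneration and were backcrossed before use. No gene was knocked out. In sorted pools, fewer cells of a type and less RNA per cell cannot be told apart.

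The bipolar lines carried their class's markers. Several lines, among them Crh, Drd4, Grik4, Chrna3, Lhx4, mGluR6 and Rgs5, also carried some markers of other cells. The 5 bipolar markers measured summed to between 870 and 2242 in the bipolar lines and between 32.6 and 260 in 16 of the other 18 lines. They summed to 519 in Drd4 and 263 in Crh. The 9 endothelial markers summed to 937 in Grik4 and 446 in Drd4, and the 8 Muller glia markers to 3405 in Drd4, 1876 in Grik4 and 1797 in Crh. In the microglia line Csf2rb2 this sum was 3769, of which Apoe gave 3263, while Rlbp1 read 29.9 and Glul 120, against 669 and 782 in Drd4. The 5 cone markers summed to 1295 in Chrna3, the highest outside the cone lines. Pde6h read 538, Opn1mw 421, Arr3 62.0 and Gnat2 25.7 there, but Opn1sw read 1.57. Rcvrn, Sag and Pde6g, at 1670, 2480 and 306 in the cone line Chrnb4, read 2.66, 2.75 and 2.60 in Chrna3. The 9 markers of retinal pigment epithelium summed to 1444 in Grik4. Lhx4 held cone markers summing to 466, with Gnat2 at 254 and Opn1sw at 103. Arr3, Opn1mw and Pde6h read 0.517, 0.0592 and 0.292 there. Of the rod list only Gnat1 and Nrl were measured. They summed to 242 in Lhx4, where Gnat1 read 138 and Nrl 9.42, against 840 and 4.68 in Crh. In b2 Nrl read 111. Microglia markers summed to 378 in mGluR6. Rgs5 held pericyte and smooth muscle markers summing to 732, with Vtn at 306 and Rgs5, the gene that names the line, at 183. Acta2 read 94.0, Myl9 60.9 and Kcnj8 51.9, while Pdgfrb, Cspg4 and Abcc9 read 6.07, 8.78 and 8.25. Photoreceptor lines had larger sums on this list, from 1048 to 1507, with Vtn from 980 to 1453. The part of other cells in the member levels of the lines with markers of other cells was not tested. The Drd4 samples are labelled RFP although the transgene named is EGFP, and which is right is not settled here. Between arrays of a set, the lowest correlation was 0.70 and the median over sets 0.914. Batch labels of 1, 2 and 3 stood on 24, 12 and 33 arrays and 9 had none. Of the bipolar lines, Pcp2 was in batch 1, mGluR6 in batch 2 and Kcng4 and Lhx4 in batch 3. Of the ganglion lines, PV was in batch 1 and the other 3 in batch 3.

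Levels are intensities on a linear scale, with means taken over log2 values, and differences are on the log2 scale, where 1 is a doubling. Probe sets differ in response, so levels were compared between lines for 1 gene and not between genes. A gene was called where limma gave a Benjamini-Hochberg adjusted p below 0.05 over all 15102 genes tested and a difference of at least 1.

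Of the type II members, Cdh6, Cdh9, Cdh10 and Cdh12 lie on chromosome 15. The highest line was Kcng4 for Cdh9, mGluR6 for Cdh12 and Grik4 for Cdh6 and Cdh10. The 250 bases before their RefSeq starts (GRCm38.p6, a later build than the mm9 of the arrays) are shown because these relatives on 1 chromosome did not share 1 pattern. Capitals mark runs of at least 10 bases that stand, in the same direction, in another of the 4.
Cdh6, chr15:13173676-13173925, minus strand: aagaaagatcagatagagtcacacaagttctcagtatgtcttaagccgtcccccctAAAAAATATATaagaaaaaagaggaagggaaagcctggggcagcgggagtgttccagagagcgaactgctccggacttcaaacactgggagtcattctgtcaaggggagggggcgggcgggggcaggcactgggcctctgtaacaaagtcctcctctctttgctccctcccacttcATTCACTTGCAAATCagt
Cdh9, chr15:16728665-16728914, plus strand: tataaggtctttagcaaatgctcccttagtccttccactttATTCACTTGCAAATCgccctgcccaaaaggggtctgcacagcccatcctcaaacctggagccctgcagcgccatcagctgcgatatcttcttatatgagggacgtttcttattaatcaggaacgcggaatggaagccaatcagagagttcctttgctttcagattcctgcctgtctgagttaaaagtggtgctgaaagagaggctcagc
Cdh10, chr15:18820079-18820328, plus strand: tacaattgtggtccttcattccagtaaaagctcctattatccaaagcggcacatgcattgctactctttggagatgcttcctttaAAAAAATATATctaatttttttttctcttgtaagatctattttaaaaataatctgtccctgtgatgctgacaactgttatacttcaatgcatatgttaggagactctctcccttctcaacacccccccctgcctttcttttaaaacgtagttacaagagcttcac
Cdh12, chr15:21111202-21111451, plus strand: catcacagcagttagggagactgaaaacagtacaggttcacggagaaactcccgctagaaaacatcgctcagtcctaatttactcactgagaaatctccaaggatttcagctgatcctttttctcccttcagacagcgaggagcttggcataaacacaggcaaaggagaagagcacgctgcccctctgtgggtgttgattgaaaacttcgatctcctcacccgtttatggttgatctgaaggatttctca
The run ATTCACTTGCAAATC of 15 bases was found on either strand in 2 of 32851 RefSeq promoter windows of this length, those of Cdh6 and Cdh9. Cdh6 and Cdh10 shared AAAAAATATAT, which 34 windows held, and no other pair shared a run of 10 or more. This search was chosen after the sequences were seen. The homeobox cores TAATCC and TAATTA and the E-box CATATG, searched on both strands, were present in 6.25%, 4.84% and 3.46% of all windows. In the 4 windows CATATG occurred 1 time, in Cdh10, and the other cores did not occur. A match or its absence is a description of these letters only. The table held a window for 21 of the 54 members.

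Cdh9 was the clearest bipolar gene of the family. Cdh9 is a type II cadherin known to steer the axons of a cone bipolar subtype to its layer. Its 3 arrays read 49.5, 50.5 and 30.3 in Kcng4, 41.9, 34.6 and 17.3 in mGluR6, and 36.5, 18.9 and 13.6 in Lhx4. In the rod bipolar line Pcp2 they read 7.05, 5.58 and 5.58. All 9 arrays of the first 3 lines lay above every Pcp2 array. Over the other 18 lines the means ran from 3.15 in b2 to 8.63 in Crh, most of them near 3.99, the level below which the arrays hold no order. Between classes, each class was set against the unweighted mean of the other 5 over 22 line means. Cdh9 was 2.33 higher in bipolar cells (SE 0.36, adjusted p = 0.00067), at 19.9 against 3.97, and 2.17 with values raised to 3.99. The class call held under 39 of 41 alternatives. Among the bipolar lines, Pcp2 differed from the mean of the other 3 by -2.30 (SE 0.25, adjusted p = 1.3e-09) and Kcng4 by 1.45 (SE 0.25, adjusted p = 0.00015). With the spread taken from repeated sets these had adjusted p = 0.0047 and 0.036. Pcp2 was the only bipolar line of batch 1, so line and batch cannot be told apart within the class. With batch as a term the differences were -2.23 and 1.37 (adjusted p = 3.2e-06 and 0.0033). The Kcng4 call was lost without replicate 2 and against Lhx4, the other bipolar line of its batch. The order of the lines was Kcng4, mGluR6, Lhx4, Crh, Drd4 and Pcp2, and the first 3 did not differ beyond their spread: Kcng4 over mGluR6 was 0.53 and mGluR6 over Lhx4 0.47 (SE 0.30 for each; adjusted p = 0.47 and 0.46), and Kcng4 over Lhx4 1.00 (adjusted p = 0.088). Each of the 3 exceeded Pcp2.
In the Crh line Cdh9 was called higher than in the other amacrine lines (1.20, SE 0.22, adjusted p = 2.7e-05), at 5.05, 14.2 and 8.97. The bipolar markers on the same arrays summed to 50.2, 568 and 172, so that the array with the most Cdh9 had the most bipolar markers. In Drd4 the Cdh9 values of 11.7, 7.02 and 4.90 stood beside bipolar marker sums of 987, 302 and 268, in the same order. The part of bipolar RNA in these values was not tested.

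Cdh11 and Cdh12 divided the bipolar lines differently. Cdh11, a type II cadherin first known from bone-forming cells, read 97.5, 76.0 and 52.7 in Lhx4, 60.1, 37.7 and 33.1 in Kcng4, 31.9, 18.2 and 26.7 in mGluR6, and 11.1, 16.7 and 9.33 in Pcp2. Lhx4 was the highest line, and Pcp2 lay among the non-bipolar lines, whose means ran from 9.01 in Gja10 to 26.3 in Drd4. The bipolar class was 1.28 above the other classes (SE 0.31, adjusted p = 0.017). Pcp2 differed from the other bipolar lines by -1.83 (SE 0.21, adjusted p = 2.2e-08) and Lhx4 by 1.65 (SE 0.21, adjusted p = 3.8e-07), with adjusted p = 0.022 and 0.019 on the spread of repeated sets. With batch as a term these were -1.71 and 1.52 (adjusted p = 0.00038 and 0.00044). Against Kcng4, the other bipolar line of its batch, Lhx4 was 0.79 higher and not called (adjusted p = 0.14). The class call was lost without Lhx4 (0.87, adjusted p = 0.11) and without Kcng4 (1.13, adjusted p = 0.083), and in batch 1, whose only bipolar line is Pcp2, the difference was -0.13. Cdh9 and Cdh11 had a Pearson r of 0.82 over the 22 line means, against a median of 0.16 over the 1035 pairs of tested members. Cdh12, by contrast, read 21.8, 22.3 and 18.4 in mGluR6 and between 4.89 and 7.36 on the 9 arrays of the other bipolar lines, with no overlap. The difference was 1.80 (SE 0.26, adjusted p = 2.6e-06), and adjusted p = 0.017 on the spread of repeated sets. Cdh12 was not restricted to mGluR6. It averaged 16.1 in the Fbxo32 and 14.9 in the Igfbp2 amacrine lines. Since mGluR6 was the only bipolar line of batch 2, line and batch cannot be told apart for it without the lines of other classes. With batch as a term the difference was 1.88 (adjusted p = 0.00072). The batch terms of that fit rest on Arc and b2, the only lines in more than 1 batch. The 2nd Arc set, which has no batch label, was taken there as batch 2, and the unlabelled d4 and Fbxo32 were left out.

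**Figure D1:**
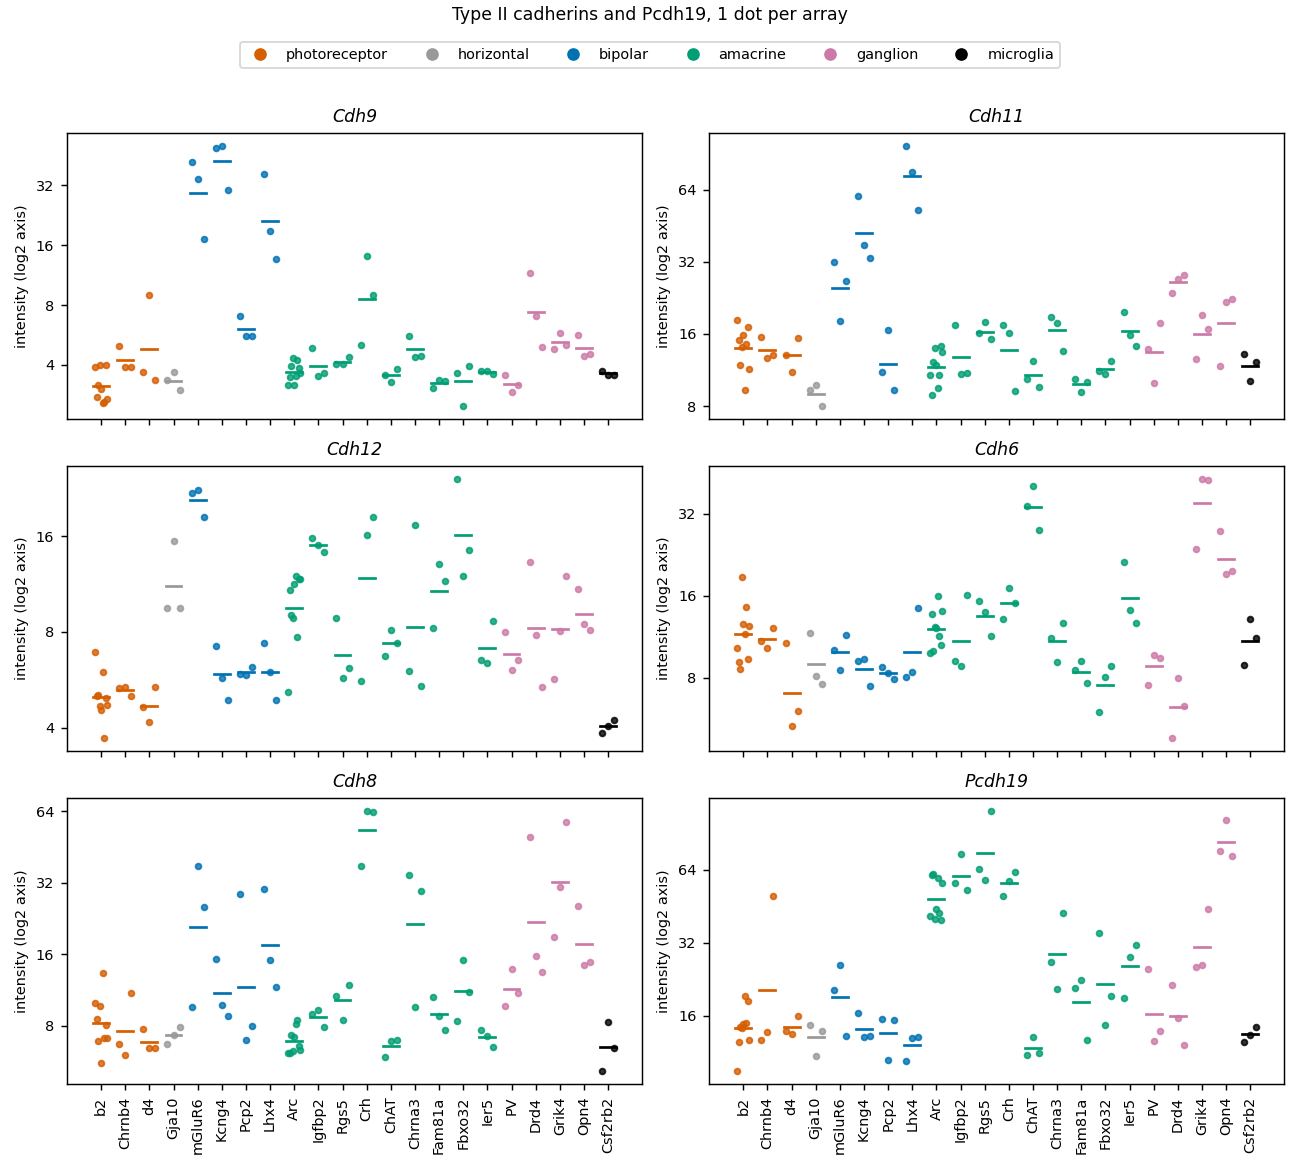
Intensity of 6 members on each array (log2 axis), by line, with 1 dot per array, a bar at the line mean and colour by class. Cdh9 stands at 13.6 or higher on the 9 arrays of mGluR6, Kcng4 and Lhx4, Cdh12 at 18.4 or higher in mGluR6 (1 Fbxo32 array reaches 24.2), Cdh6 at 27.9 or higher in ChAT, and Pcdh19 at 72.9 or higher in Opn4.

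Cdh6 was high in the starburst amacrine line and in the Grik4 and Opn4 ganglion lines. Cdh6 is a type II cadherin known in the retina from starburst cells and direction-selective ganglion cells. In ChAT it read 34.3, 40.3 and 27.9, and no array of the other 8 amacrine lines exceeded 21.2. The difference was 1.57 (SE 0.19, adjusted p = 5.5e-09) and kept its call in 17 of 18 alternatives. Within batch 1 it was 1.58 (adjusted p = 6.6e-08). Among ganglion lines Cdh6 read 23.7, 43.1 and 42.5 in Grik4, 27.6, 19.3 and 19.7 in Opn4, 7.50, 9.70 and 9.42 in PV, and 4.78, 7.99 and 6.29 in Drd4. The Grik4 arrays overlapped with those of Opn4 and with no other. Grik4 was 1.73 higher than the other ganglion lines (SE 0.21, adjusted p = 1.3e-08), and Drd4 differed by -1.61 (SE 0.21, adjusted p = 1.4e-07). Opn4 exceeded PV by 1.31 (SE 0.25, adjusted p = 0.00072). Grik4 also held the largest endothelial marker sum of the lines, at 956, 1224 and 630 on its arrays, and microglia markers summing to 433, 1245 and 628, the latter in the same order as Cdh6. The part of these cells in its Cdh6 level was not tested.

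Cdh8, a type II cadherin known from another cone bipolar subtype, was highest in the Crh amacrine line. It read 37.6, 64.0 and 63.6 there and between 5.92 and 34.4 on the 30 arrays of the other amacrine lines, without overlap. The difference was 2.51 (SE 0.32, adjusted p = 2.1e-08), held in all 17 alternatives and was 2.64 within batch 3. The 2 rod markers measured summed to 206, 2366 and 1280 on the same Crh arrays. Cdh8 was lowest on the array with the lowest sum. Gnat1 made up most of it, with line means of 840 for Gnat1 and 4.68 for Nrl. The 5 photoreceptor markers summed to 71.5 in Crh, against 4555 in b2. Bipolar markers on the Crh arrays summed to 50.2, 568 and 172 and Muller glia markers to 663, 3517 and 1212, in the same order. The part of these other cells in the Cdh8 level was not tested. The Chrna3 line followed at 34.4, 9.55 and 29.6 (1.02, SE 0.32, adjusted p = 0.021; 0.14 with batch as a term), with 1 array among those of the other lines. Cone markers, led by Pde6h and Opn1mw, summed on these arrays to 1858, 832 and 1193, in the same order as Cdh8. Their part was not tested. In the bipolar lines Cdh8 read 9.57, 37.6 and 25.4 in mGluR6 and 28.7, 6.97 and 7.98 in Pcp2, a spread within a set that exceeded the difference between the lines. PV, the only ganglion line of batch 1, was lowest of the ganglion lines for Cdh10 (-1.11, SE 0.19, adjusted p = 3.4e-05; 0.020 with batch as a term). It was also lowest for Cdh8 (-1.03, SE 0.35, adjusted p = 0.043), a call lost with batch as a term (adjusted p = 0.60) and without any 1 replicate. In Drd4, 1 of the lines it was set against, Cdh8 read 49.7, 15.8 and 13.5. Bipolar markers on those arrays summed to 987, 302 and 268, in the same order, and their part was not tested. Cdh10 read 5.86, 5.61 and 4.76 in PV and 6.22 or more on all other ganglion arrays. Its PV call was lost when Crh, Drd4 and Grik4 were left out. Cdh10 was highest in Grik4, at 11.3, 21.5 and 19.0 (1.05, SE 0.19, adjusted p = 0.00011). This call was lost on the spread of repeated sets (adjusted p = 0.061) and against lines of the same batch (0.77). It was also lost without replicate 2 and without replicate 3. The Grik4 microglia marker sums given above lay in the same order, and their part was not tested.

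The other type II members gave few calls. Cdh24 was called lower in Crh, Chrna3 and Drd4 than in the other lines of their classes, by -1.88, -1.37 and -1.57, with SEs of 0.49, 0.49 and 0.53. In Drd4 it averaged 2.56, below 3.99, and with values raised to that level the difference was -0.98 (adjusted p = 0.20). The Chrna3 call was lost at that level too (adjusted p = 0.051), and all 3 calls were lost with batch as a term. Its arrays varied widely: the 9 rod arrays ran from 14.6 to 122 with a median of 29.0. Cdh7, Cdh20 and Cdh22 were called in no class or line comparison, and Cdh19 stayed below the filter, at 4.64 in its highest line. The type I cadherins were more even. Cdh2, the neural cadherin, ranged from 6.87 in b2 to 19.3 in Lhx4, Cdh4, the retinal cadherin, from 9.20 in Drd4 to 24.8 in Gja10, Cdh1, the epithelial cadherin, from 7.85 to 11.8, and Cdh15, the muscle cadherin, from 5.86 to 10.4. None of these 4 was called in a class or line comparison, although between single lines Cdh2 was higher in Lhx4 than in Pcp2 (1.24, SE 0.26, adjusted p = 0.0011) and Kcng4 (adjusted p = 0.035), and Cdh4 was 1.31 higher in PV than in Drd4 (SE 0.36, adjusted p = 0.0072). The type I member Cdh3 was below the filter. Of the atypical members, Cdh13, a cadherin held by a lipid anchor without an intracellular tail, read 16.3, 28.9 and 26.5 in Igfbp2 (1.12 above the other amacrine lines, SE 0.20, adjusted p = 0.00015, but 0.082 on the spread of repeated sets). Cdh26 was called in no class or line comparison, and Cdh16, Cdh17 and the hair-cell tip-link gene Cdh23 were below the filter.

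Among the delta-2 protocadherins, which bind the WAVE complex, Pcdh19 and Pcdh10 split the ganglion lines in opposite ways. Pcdh19, the X-linked member, read 76.8, 103 and 72.9 in Opn4, and no other ganglion array exceeded 44.3. The difference was 2.06 (SE 0.28, adjusted p = 4.9e-07), held in 18 of 18 alternatives, and was 1.91 against the ganglion lines of batch 3 alone. Pcdh10 read 14.2, 9.18 and 9.98 in Opn4, against 52.0, 57.8 and 55.5 in Drd4, 30.3, 72.7 and 31.3 in PV, and 14.0, 32.0 and 23.2 in Grik4. Opn4 differed from the other lines by -1.75 (SE 0.23, adjusted p = 4.9e-07) and Drd4 by 1.37 (SE 0.23, adjusted p = 5.9e-05). These ganglion comparisons share arrays, as do all comparisons of lines within a class.

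Pcdh19 also split the amacrine lines. Its line mean was 74.8 in Rgs5, 60.6 in Igfbp2, 56.5 in Crh and 48.7 in Arc, 28.6 or less in the other 5, and 11.7 in ChAT. The ChAT arrays read 11.0, 13.0 and 11.2, and this was the lowest of the 22 line means. ChAT differed from the other amacrine lines by -1.66 (SE 0.25, adjusted p = 2.7e-06), and by -1.32 within batch 1. The 3 Arc sets, of batches 1, none given and 3, lay at 41.3 to 61.8, 40.0 to 59.0 and 39.6 to 56.5. The calls of Rgs5 (1.35) and Igfbp2 (1.01) were lost against the amacrine lines of batch 3 alone, which are the other high lines (0.47 and 0.070), and they were lost on the spread of repeated sets (adjusted p = 0.16 and 0.31).

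Pcdh8 and Pcdh10 were higher in the ganglion class and in the Crh amacrine line, and Pcdh17 was lower in both. Pcdh8, an activity-regulated protocadherin, was 1.29 higher in the ganglion class (SE 0.28, adjusted p = 0.0068) at a class mean of 20.1 against 8.21. It read 20.7, 41.6 and 38.7 in Crh, above the 15.8 of the highest other amacrine array (1.53, SE 0.17, adjusted p = 7.4e-10), and 17.1, 16.2 and 15.6 in Lhx4, above the other bipolar lines (1.03, SE 0.19, adjusted p = 0.00020; 0.23 on the spread of repeated sets). Pcdh10 was 1.31 higher in the ganglion class (SE 0.39, adjusted p = 0.041), with Opn4 at 10.9 against 21.8 to 55.1 in the other ganglion lines, and at 0.97 without Drd4 (adjusted p = 0.22). Without both Drd4 and Grik4, Pcdh8 was at 1.14 (adjusted p = 0.14). In Crh Pcdh10 read 32.8, 33.9 and 29.1, above every other amacrine array (1.28, SE 0.21, adjusted p = 4.8e-06). Pcdh17 differed by -1.35 in ganglion cells (SE 0.42, adjusted p = 0.049), and 13 of 41 alternatives kept the call. It was also called in rods against the cone lines (1.04) and in Crh against the other amacrine lines (-1.52). The rod call was lost in 8 of 18 alternatives, at 0.70 with batch as a term (adjusted p = 0.51), and the Crh call was lost with batch as a term (adjusted p = 0.056). The Crh arrays also held Muller glia markers summing to 663, 3517 and 1212, and the part of other cells in these values was not tested. Pcdh18 was higher in Crh (1.21) and ChAT (1.01) than in the other amacrine lines, with overlapping arrays. The Crh call was lost with batch as a term, at 0.94, and the ChAT call on the spread of repeated sets (adjusted p = 0.085).

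Of the delta-1 and other single protocadherins, Pcdh9 varied most. Pcdh9 read 84.4, 79.8 and 74.1 in Opn4, and 5.97, 4.71 and 6.84 in microglia. It was 1.41 higher in the ganglion class (SE 0.42, adjusted p = 0.042) and -2.38 in microglia (SE 0.73, adjusted p = 0.042). Both calls sat near the threshold, and 19 of 41 and 23 of 37 alternatives kept them. Of single lines left out, Csf2rb2 moved the ganglion difference most, to 0.97 (adjusted p = 0.16), and Opn4 to 1.20 (adjusted p = 0.13). Within the amacrine class it was called higher in Rgs5 (1.48) and Chrna3 (1.42), and lower in Fam81a (-1.75), with overlapping arrays. On the spread of repeated sets the Rgs5 and Fam81a calls were lost (adjusted p = 0.23 and 0.12), as they were against lines of the same batch (adjusted p = 0.15 and 0.29). The Rgs5 line held pericyte and smooth muscle markers summing to 732, led by Vtn and Rgs5. Chrna3 held the cone markers given above, led by Pde6h and Opn1mw. The part of other cells was not tested. Pcdh7 read 25.5, 27.0 and 18.9 in PV, above the 18.8 of the highest other ganglion array (1.40, SE 0.35, adjusted p = 0.0047; 0.17 on the spread of repeated sets; 0.80 and adjusted p = 0.68 with batch as a term). Its highest line means were 30.2 in Kcng4 and 24.8 in Lhx4, both bipolar lines, against 23.5 in PV. Between single bipolar lines, mGluR6 differed from Kcng4 by -1.54 (SE 0.43, adjusted p = 0.030). Pcdh20 read 19.6, 15.8 and 29.5 in Grik4, against at most 15.0 in the other ganglion lines (1.02, SE 0.27, adjusted p = 0.022; 0.27 on the spread of repeated sets). Pcdh20 was also called in Rgs5 (1.08) and Crh (1.09). The Rgs5 call was lost on the spread of repeated sets (adjusted p = 0.47) and with batch as a term (adjusted p = 0.48). The Crh arrays read 7.23, 22.1 and 19.3, in the same order as their rod marker sums, which were mostly Gnat1. The part of other cells was not tested, and that call was lost with batch as a term (adjusted p = 0.052). Pcdh1, the vascular Pcdh12 and the tip-link gene Pcdh15 were called in no class or line comparison, and Pcdh11x was below the filter.

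**Figure D2:**
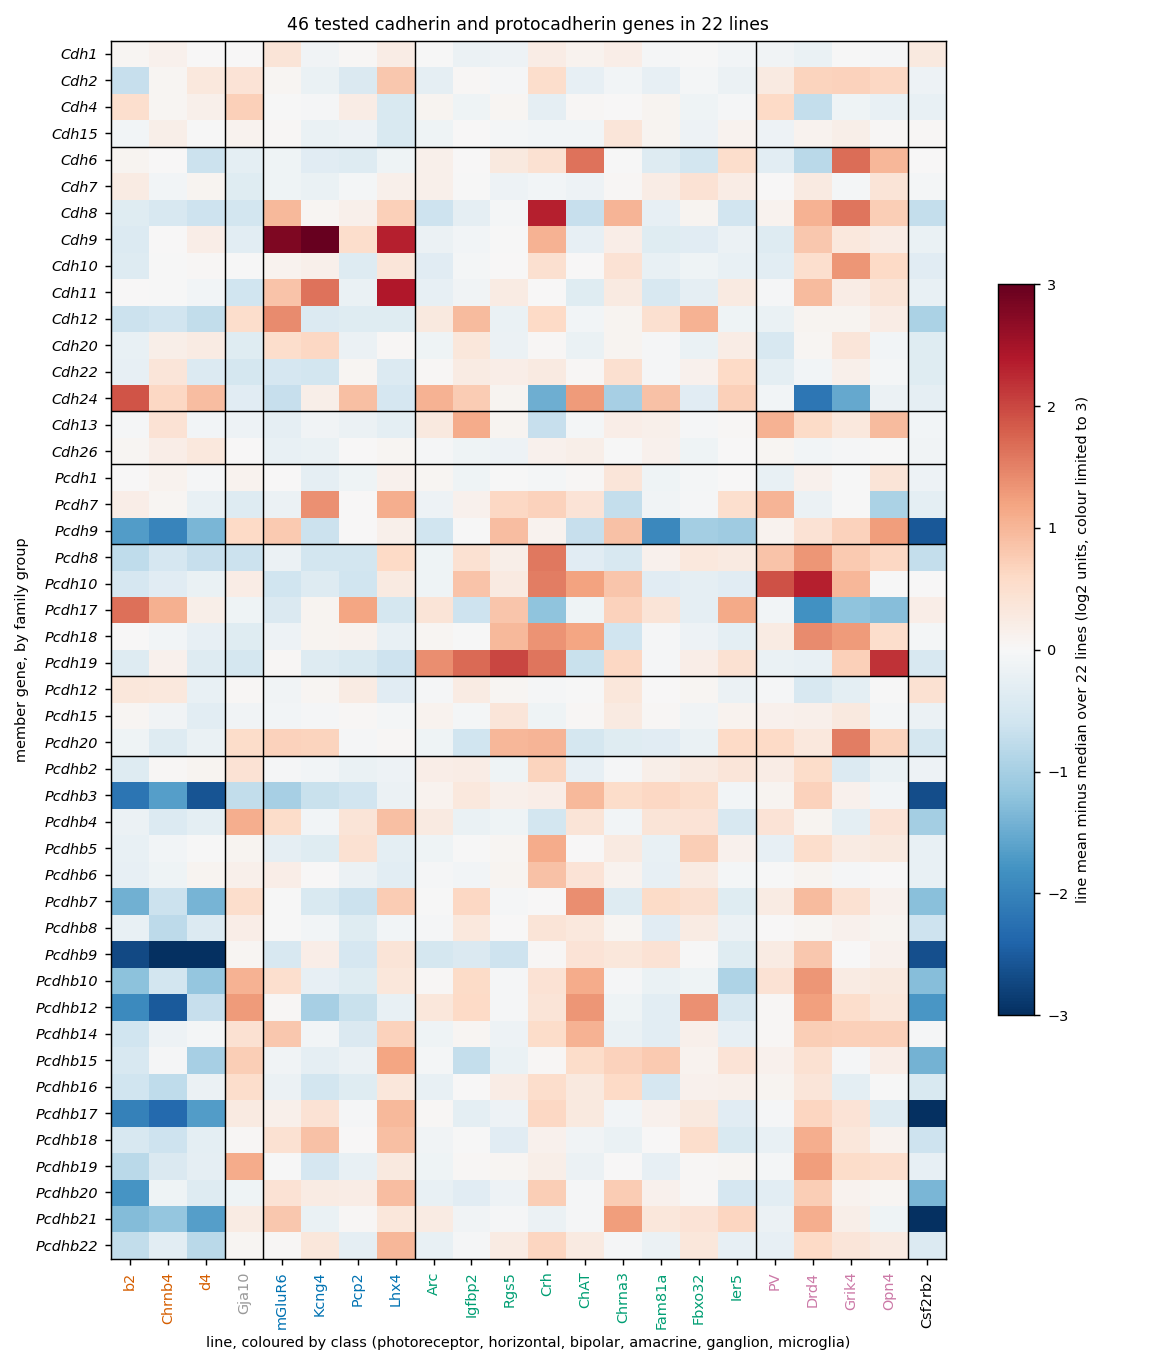
Line means of the 46 tested members minus the member's median over the 22 lines (log2 units, colour limited to 3), rows by family group and columns by line and class. Photoreceptor lines and microglia are low for Pcdhb9, Pcdhb3, Pcdhb17 and Pcdhb21, while the type II and delta-2 rows change from line to line within a class.

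The protocadherin beta genes moved together, low in photoreceptors and microglia. In photoreceptors all 19 tested genes lay below 0 against the other classes, with a median of -0.58 against -0.05 over all genes, and 6 were called lower. In all 6 members of 46 were called lower there, where the share over all genes was 4.32%, and 0 higher, where it was 2.03%. The filter kept a gene that was bright in any set. Pcdhb2 and Pcdhb5 had a line mean above 9.01 in Crh alone, and Pcdhb19 in Drd4 and Gja10 alone. For such genes a place below 0 in other classes is partly set by the filter. Pcdhb9 had the largest difference, at -2.41 (SE 0.26, adjusted p = 8.9e-06), held in 39 of 39 alternatives. Its 3 photoreceptor line means were 5.45 in b2, 4.49 in Chrnb4 and 4.41 in d4, and those of the neuronal lines outside the class were 23.4 or more. The highest of the 15 photoreceptor arrays, at 12.5 in b2, lay below the lowest array of the other neuronal lines, at 13.1 in Pcp2. Pcdhb3 (-1.46), Pcdhb17 (-1.44), Pcdhb12 (-1.70), Pcdhb7 (-1.14) and Pcdhb10 (-1.08) were called lower as well. With batch removed, Pcdhb9, Pcdhb3 and Pcdhb17 kept their calls and the other 3 did not (Pcdhb10 -0.47, Pcdhb12 -1.39 and Pcdhb7 -1.12). These 3 were also lost without b2, where Pcdhb10 was at -0.95 and Pcdhb12 at -1.60.

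In microglia, too, all 19 lay below 0, at a median of -1.25 against -0.06 over all genes, with the same limit from the filter. Of 46 members 6 were called lower, where the share over all genes was 3.64%, and 0 higher, where it was 5.68%. Pcdhb21 read 2.16, 2.41 and 2.09 there, below 3.99, and differed by -3.68 as measured (SE 0.48, adjusted p = 1.2e-05) and by -2.88 with values raised to that level. Pcdhb17 read 6.61, 2.08 and 19.6 (-3.54, SE 0.42, adjusted p = 3.6e-06), Pcdhb3 38.3, 47.3 and 18.0 (-2.07), Pcdhb9 5.73, 3.58 and 9.19 (-2.09) and Pcdhb4 was at -1.29. Below every other line stood 9 of 46 members, 19.6%, against 9.01% of all genes. The microglia class is 1 line, so the spread between its lines is assumed to be that of the other classes.

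**Figure D3:**
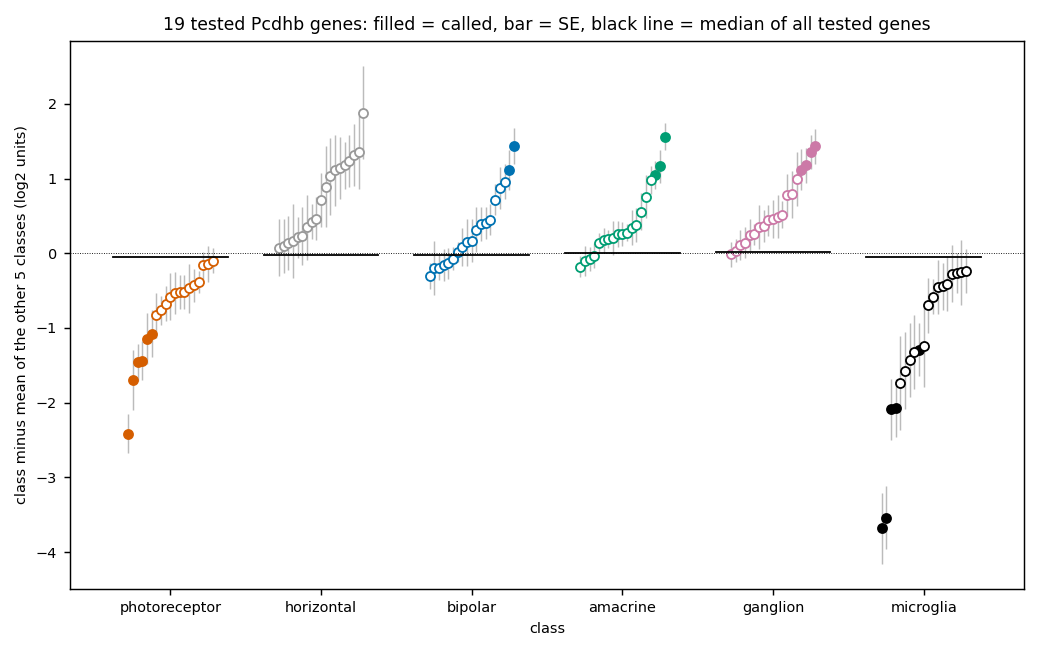
Difference of each class from the mean of the other 5 (log2 units) for the 19 tested Pcdhb genes, filled where called, with SE as bars and the median over all genes tested as a black line. All 19 points lie below 0 in photoreceptors and microglia and above 0 in the horizontal class, where none was called. With photoreceptor and microglia lines left out (not drawn), 6 of the 19 lay below 0 in the horizontal class.

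In the other classes the beta genes were mostly higher, against a reference that held photoreceptors and microglia. None of those calls held when the photoreceptor and microglia lines were left out. In the horizontal line all 19 lay above 0 (median 0.71), but none was called, and the lowest adjusted p of any member was 0.071. The bipolar class had 2 beta genes called higher (Pcdhb17 1.44, Pcdhb21 1.11), the amacrine class 3 (Pcdhb3 1.56, SE 0.18, adjusted p = 1.7e-05; Pcdhb21 1.16; Pcdhb17 1.05), and the ganglion class 4 (Pcdhb9 1.43, Pcdhb3 1.36, Pcdhb17 1.17 and Pcdhb21 1.12). Counting all members, 4 of 46 were called higher in bipolar cells (all genes 1.52%) and 0 lower (1.15%), 3 higher in amacrine (1.55%) and 0 lower (1.23%), and 7 higher in ganglion cells (3.26%), with 1 lower there (0.973%). In the horizontal class 0 were called (1.21%). Without Csf2rb2 alone the calls of Pcdhb17 were lost in bipolar, amacrine and ganglion cells (0.76, 0.35 and 0.49), as were those of Pcdhb21 (0.39, 0.44 and 0.40) and of Pcdhb3 in ganglion cells (0.98). Without photoreceptors and microglia in the reference, an alternative chosen after the data were seen, of the 15 calls in the classes left only those of Cdh9 and Cdh11 in bipolar cells remained. Pcdhb21 in bipolar and ganglion cells and Pcdhb17 in ganglion and amacrine cells then changed sign, at -0.015, -0.0083, -0.077 and -0.22. Of the 19 beta genes, 14 then lay below 0 in bipolar, 12 in amacrine, 7 in ganglion and 6 in horizontal cells. Their medians in these classes were -0.22, -0.11, 0.10 and 0.17. The pairs of members most alike over the 22 line means were Pcdhb9 with Pcdhb17 (Pearson r 0.90), Pcdhb9 with Pcdhb3 (0.89), Pcdhb7 with Pcdhb10 (0.88), Pcdhb21 with Pcdhb17 (0.87) and Pcdhb8 with Pcdhb12 (0.86). These genes are close copies of each other, so how far their probe sets share signal is uncertain.

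Within a class the beta genes were called in few lines. Pcdhb15 read 132, 101 and 123 in Lhx4 and between 37.8 and 55.9 in the other bipolar lines (1.36, SE 0.29, adjusted p = 0.0016; 0.14 on the spread of repeated sets). Pcdhb20 read 5.21, 9.69 and 7.15, then 7.84, 3.34 and 10.1, and last 0.503, 5.08 and 7.21 in the 3 rod sets, below the 11.1 of the lowest cone array (-1.51, SE 0.28, adjusted p = 2.8e-05; 0.053 on the spread of repeated sets). Pcdhb14 and Pcdhb10 were higher in ChAT (1.08 and 1.16), Pcdhb5 in Crh (1.01) and Pcdhb18 in Drd4 (1.02), all with overlapping arrays. Pcdhb10 was lower in Ier5 (-1.14). Both ChAT calls and the Ier5 call were lost on the spread of repeated sets (adjusted p = 0.081, 0.16 and 0.20), the Crh call with values raised to 3.99, and the Drd4 call against lines of the same batch (0.87). Pcdhb2, Pcdhb6, Pcdhb8, Pcdhb16, Pcdhb19 and Pcdhb22 were called in no class or line comparison, and Pcdhb1 and Pcdhb13 were below the filter. Between single lines, Pcdhb22 in Pcp2 differed from Lhx4 by -1.25 (SE 0.25, adjusted p = 0.00073).

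Over the 6 class comparisons 14 of 46 members were called at least once, 30.4%, where all genes gave 17.8%, and over 20 line comparisons 22, 47.8%, where all genes gave 41.8%. In pairs of gene and comparison, 27 of 276 class pairs were called (all genes 4.42%) and 47 of 920 line pairs (4.21%), of which 14 had arrays without overlap (1.07%). On the spread of repeated sets 26 of 920 line pairs were called (2.17%). The share of members called in line comparisons was thus near that of all genes.
By line, with the share over all genes in parentheses, the photoreceptor line b2 had 1 member called higher (4.69%) and 1 lower (6.02%). Of the bipolar lines, mGluR6 had 1 higher (1.94%), Kcng4 1 higher (0.344%), Lhx4 3 higher (1.26%) and Pcp2 2 lower (1.85%). Of the amacrine lines, Crh had 7 higher (6.35%) and 2 lower (12%), ChAT 4 higher (1.19%) and 1 lower (1.58%), Rgs5 3 higher (0.53%), Igfbp2 2 higher (0.993%), and Chrna3 2 higher (2.65%) and 1 lower (5.22%). Fam81a and Ier5 had 1 lower each (0.967% and 1.03%). Of the ganglion lines, PV had 1 higher (3.36%) and 3 lower (2.68%), Drd4 2 higher (1.95%) and 3 lower (4.4%), Grik4 3 higher (1.49%), and Opn4 1 higher (0.417%) and 1 lower (0.258%). Uncalled in both the class and the line comparisons were 17 of the 46. Their 8 companions below the filter had highest line means between 4.64 (Cdh19 in Chrna3) and 8.75 (Cdh16 in Chrnb4). Cdh18 and the gamma cluster were not analysed here, and the alpha cluster's probe set carries several symbols and was not used.

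Repeats of the Arc and rod lines showed how far members moved when 1 line was measured again. Among the 276 member pairs from the 3 Arc and the 3 rod sets none was called by limma (all genes 0.98%), while 23 had an unadjusted p below 0.05. Pcdh8 alone passed the adjusted threshold, between the 1st and 3rd Arc sets (-0.99, adjusted p = 0.022), where it read 6.55, 6.71 and 6.85 against 14.7, 12.3 and 13.0. Differences of 1 or more were found in 4.71% of these pairs and in 7.17% of line pairs, and the median size was 0.18 against 0.27. Most of the large ones were beta genes in rods. Pcdhb17 read 6.57, 82.8 and 3.75 in the 1st rod set and 145, 54.7 and 30.8 in the unnumbered one, a difference of 2.30 in size with adjusted p = 0.10. A difference near 1 in 1 line of 3 arrays was thus within what repeats of a line showed.

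**Figure D4:**
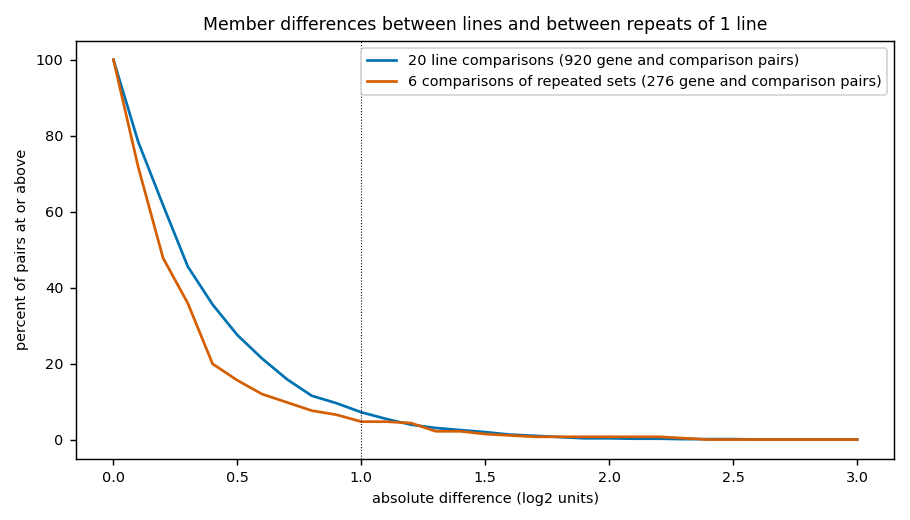
Percent of gene and comparison pairs (y axis) whose absolute difference in log2 units is at or above the value on the x axis, for the 46 tested members in 20 line comparisons and in 6 comparisons of repeated sets of 1 line. At 1 the curves stand at 7.17% and 4.71%.

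Of 67 partner genes on 6 lists 43 were tested, and 5 of 258 pairs of gene and class were called, 1.94%, where all genes gave 4.42%. The calls fell on 4 genes. The WAVE complex, the actin regulator bound by delta-2 protocadherins, had 8 of 10 listed genes tested. Its subunit Nckap1 was 1.56 higher in ganglion cells (SE 0.23, adjusted p = 0.00026) and -2.30 in microglia (SE 0.41, adjusted p = 0.00045), where its blood-cell relative Nckap1l was 2.15 higher (SE 0.23, adjusted p = 7.5e-07) and Brk1 1.06 higher (SE 0.30, adjusted p = 0.025). Clstn2, a calsyntenin with cadherin repeats, was 1.11 higher in ganglion cells (SE 0.22, adjusted p = 0.0028), the 1 call among 11 tested genes of the other cadherin superfamily list. None of the 8 catenins, 5 nectin and afadin genes, 5 Usher genes or 6 regulators of the protocadherin cluster tested was called in any of the 6 classes.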

How the data were processed

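The 78 arrays, labelled as biological replicates in sets of 3, were hybridised to Affymetrix Mouse Gene 1.0 ST. The deposited intensities are linear and quantile-normalized: sorted values were the same in all 78 columns. RMA with oligo in R 2.11.1 and the build mm9 are named in the submitters' processing notes. The values had been assumed to be on a log2 scale, and log2 was taken here.

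Of 22347 probe sets, 19446 had 1 gene symbol, 735 several and 2166 none or no entry. Of 19301 genes, 15102 with a set mean above 9.01 were tested with limma 3.58.1 in R 4.3.3 (eBayes with trend). Classes were compared over 22 line means. Lines were compared over arrays with the other lines of their class, so their p-values measure the spread between arrays, and comparisons within a class share arrays. Values up to 3.99, 10.5% of all, were raised to it in 1 alternative. Fits by batch took the unlabelled 2nd Arc set as batch 2, by its number, and left out d4 and Fbxo32, which have no label. Only Arc and b2 stood in more than 1 batch, so they alone set the batch terms. The number of arrays limits the precision. The method was tested on simulated data.

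The members and lists were chosen with earlier results of these data known. Named were members called in a class, or in a line with no overlap of arrays, and Cdh9 in every line; others were added after their values were seen. Samples with equal replicate numbers had a mean residual correlation of 0.000207, so the numbers were not taken as pairs. Figures were drawn with matplotlib 3.10.9.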

Additional observations from a re-analysis of the deposited data

Results flagged for a closer look

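Dixon's test for 1 line far from the other lines of its class was run on 26 pairs of member and class, those called between classes or in a line with no overlap of arrays, and it marked 4. Chance marks about 1 in 20 groups not chosen for their values, a rate that does not apply to pairs chosen in this way. Cdh12 averaged 20.7 in mGluR6, and the nearest bipolar line was Lhx4 at 5.99. Pcdhb15 averaged 118 in Lhx4, and the nearest was mGluR6 at 48.0. Pcdh8 averaged 32.2 in the Crh amacrine line, followed by Igfbp2 at 14.8. Cdh6 averaged 33.8 in ChAT, followed by Ier5 at 15.6.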

How the results depend on the processing

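The 27 member calls in the class comparisons became 9 on log2(intensity + 16), 2 in batch 1 alone, 15 in batch 3 alone, 14 without Csf2rb2 or with neuronal classes only, and 2 with inner retinal classes only, a setting chosen after seeing the data. Some classes are missing from these settings: of the 27 calls, 21 lie in the classes of batch 1, 21 in those of batch 3, 21 in neuronal and 15 in inner retinal classes. They ranged from 14 to 29 without 1 line each and from 19 to 26 without 1 replicate each. The 47 line calls became 7 on log2(intensity + 16), 26 with the spread of repeated sets and 30 with batch as a term, and ranged from 29 to 47 without 1 replicate each. The 0 calls between repeated sets ranged from 0 to 3. The 5 partner calls became 1 in batch 1 alone, 3 without Csf2rb2 or with neuronal classes only and 2 with inner retinal classes only, and ranged from 3 to 6 without 1 replicate or line each. With inner retinal classes only, Pcdhb21 turned to -0.015 in bipolar and -0.0083 in ganglion cells, and Pcdhb17 to -0.22 in amacrine and -0.077 in ganglion cells. Cdh11 in bipolar cells was -0.13 in batch 1 alone. The cause was not tested. With the replicate number as a block the counts were 27, 47, 0 and 5. Signal limits genes near 3.99, such as Cdh9 outside the bipolar lines and Pcdhb21 in microglia.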
